A study of Mus musculus with 10 samples.

Results

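The genes described here encode the chains of the collagens, measured in whole liver by bulk RNA sequencing. They were chosen as every gene whose symbol has the form Col, digits, a, digits and that had at least 10 counts in at least 3 of 10 libraries, which gave 36 of the 44 such symbols in the count table, out of 27179 genes. The livers came from male C57BL/6 mice fed a steatohepatitis (NASH) diet over 12 weeks. All mice carried floxed alleles of Lpcat3, which encodes an enzyme that remodels the fatty acids of membrane phospholipids. The 5 control mice (Lpcat3f/f) had no Cre, and the 5 LKO mice (Lpcat3f/f Albumin-Cre) carried Cre recombinase under the albumin promoter, which is active in hepatocytes. The labels give no age, and no group without the diet or with Cre alone is used here. The comparison therefore asks how collagen transcripts differ between diet-fed livers with and without hepatocyte Lpcat3.

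Collagens are trimers of alpha chains wound into a triple helix. Fibrillar collagens (types I, III and V among them) form the banded fibrils of scar tissue, and type IV forms the network of basement membranes. Type VI assembles into beaded filaments, fibril-associated collagens such as types XII, XIV and XVI sit on or near fibrils, and the remaining types include the basement membrane zone collagens XV and XVIII and several membrane-spanning ones. In injured liver, activated stellate cells and portal fibroblasts are the main source of fibrillar collagen, whereas endothelial cells, bile duct cells and hepatocytes make some of the other types.

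By these classes the members were 9 fibrillar, 6 basement membrane, 5 beaded filament, 5 fibril-associated and 11 other chains. At the edge of the rule, Col28a1 and Col8a2 reached 10 counts in 3 libraries and Col9a3 in 4. Just outside it, Col11a1 and Col22a1 reached 10 counts in 2 libraries and Col19a1 in 1. Col2a1, Col6a4, Col9a1, Col9a2 and Col26a1 reached it in 0.

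Promoter sequences are shown for 3 fibrillar chains because the class split in direction, with Col1a2 and Col3a1 higher on average in LKO and Col27a1 lower. Each line gives the 250 bases before the annotated start, 5′ to 3′ on the plus strand of RefSeq's GRCm38.p6, at chr6:4505368-4505617 for Col1a2, chr1:45311288-45311537 for Col3a1 and chr4:63215162-63215411 for Col27a1. Capitals mark the CCAAT box, known as the site of the factor NF-Y, the TATA box, searched as TATAAA, and the GC box of Sp1-type factors, searched as GGGCGG, all on both strands.
Col1a2: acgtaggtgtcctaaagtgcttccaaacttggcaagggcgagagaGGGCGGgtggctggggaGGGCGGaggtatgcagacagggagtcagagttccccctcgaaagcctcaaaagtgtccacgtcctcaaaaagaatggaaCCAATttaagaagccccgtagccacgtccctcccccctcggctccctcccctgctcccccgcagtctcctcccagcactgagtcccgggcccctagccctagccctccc
Col3a1: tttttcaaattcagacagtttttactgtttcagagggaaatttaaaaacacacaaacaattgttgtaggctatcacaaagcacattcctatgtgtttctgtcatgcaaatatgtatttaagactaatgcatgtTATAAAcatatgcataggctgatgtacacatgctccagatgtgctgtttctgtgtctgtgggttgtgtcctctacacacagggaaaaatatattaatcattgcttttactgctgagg
Col27a1: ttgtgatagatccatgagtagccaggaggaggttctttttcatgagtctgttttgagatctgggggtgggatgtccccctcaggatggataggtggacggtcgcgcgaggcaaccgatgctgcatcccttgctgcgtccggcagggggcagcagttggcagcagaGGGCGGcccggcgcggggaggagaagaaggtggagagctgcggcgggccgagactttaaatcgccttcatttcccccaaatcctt
The 3 windows differed in composition. Col1a2 had 62% G and C, 2 GC boxes and 1 CCAAT, Col27a1 had 59.6% G and C and 1 GC box, and Col3a1 had 35.2% G and C and 1 TATAAA. The fourth sequence is the shared start of Col4a1 and Col4a2, the main chains of type IV collagen, which lie head to head on opposite strands. Their annotated starts are 21 bases apart, and the 30 bases below, at chr8:11312801-11312830 on the plus strand, run across both, with capitals from the Col4a2 start to the Col4a1 start.
Col4a1 and Col4a2: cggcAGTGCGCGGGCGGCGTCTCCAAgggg

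RefSeq's table held promoter windows for 30 of the 36 members (32 windows of 300 bases, 250 before to 50 after the start). Col12a1, Col14a1, Col1a1, Col4a3, Col5a2 and Col9a3 were not matched. GGGCGG stood in 20 of the 32 member windows (62.5%), against 35.7% of all 32851 windows. These windows are not all separate. The match of the Col4a1 window is also counted in the Col4a2 window, which overlaps it, and Col6a2 counts with both of its windows. CCAAT stood in 31.2% against 37.4%, TATAAA in 15.6% against 13.6% and CAGAC (the core of a SMAD site, the factors downstream of TGF-beta) in 50% against 49.6%. TGANTCA (an AP-1 site) stood in 1 member window, that of Col6a1, or 3.12% against 7.81%, and the CArG box of serum response factor in 0 member windows against 1.63%. GGGCGG was present in 14 of 22 matched, tested chains with a log2 fold change above 0 and in 4 of 6 below 0. These are matches of letters, with none of them measured as a bound site.

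Library depth ran from 26914124 counts in control 4 to 46727182 in control 5, and members took 0.104% to 0.188% of all counts in control and 0.135% to 0.295% in LKO. Lpcat3, the targeted gene, stood at 109 ± 13.3 CPM (counts scaled to library size, per 1e6) in control and 31.3 ± 4.65 CPM in LKO (SD, n = 5), without overlap, and fell by 1.79 on the log2 scale (edgeR quasi-likelihood test, adjusted p = 0.000151). A pair of libraries, control 4 and LKO 3, were the highest of their groups in many collagen chains and at the end of their groups in some marker lists of other cells. Their summed macrophage markers were 357 CPM in control 4 against 162 to 201 CPM in the other controls. In LKO 3 they were 516 CPM against 287 to 415 CPM in the other LKO livers. Summed cholangiocyte (bile duct) markers were 176 CPM in control 4 against 37.3 to 41.5 CPM in the other controls. They were 391 CPM in LKO 3 against 41.2 to 234 CPM in the other LKO livers. Most of this cholangiocyte sum was 1 gene, Spp1, at 145 CPM in control 4 and 316 CPM in LKO 3. Spp1 was at 14.5 to 27.2 CPM in the other controls and 21.1 to 190 CPM in the other LKO livers. Summed portal fibroblast and capsule markers were 32.1 CPM in control 4 against 10.9 to 14.9 CPM, and 116 CPM in LKO 3 against 18.1 to 42.7 CPM. The hepatocyte sum was 41019 CPM in control 4 against at least 60853 CPM in the other controls, and 35962 CPM in LKO 3 against 38177 to 53188 CPM in the other LKO livers, the nearest being LKO 5. Titles of the samples also bear a code that the labels do not explain. A54 holds control 1, LKO 1 and LKO 2, A55 only controls and A67 only LKO livers, so outside A54 the code and the genotype cannot be told apart.

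Most collagen chains had a higher mean in LKO, but none passed the test across all genes. Of the 33 members with enough counts to be tested, the log2 fold change, LKO over control, was above 0 in 26 and below 0 in 7, or 78.8% above 0 where all tested genes gave 49.5%. The median over these members was 0.65, against -0.00 over all genes. With edgeR's quasi-likelihood test 0 of 33 had an adjusted p under 0.05, where 0.0657% of all 15226 genes did, and the adjusted p of members ran from 0.108 (Col4a1) to 0.947 (Col11a2). At an unadjusted p under 0.05 there were 10 members higher and 4 lower in LKO, or 30.3% and 12.1%, against 12.8% and 9.5% of all genes. DESeq2 called 6 members (4 higher, 2 lower; all genes 7.79%) and limma voom with quality weights 12 (10 higher, 2 lower; all genes 16.2%).

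The count of calls turned on 1 library. Without control 4, edgeR called 14 of 33 members, 12 higher and 2 lower in LKO (36.4% and 6.06%), while 10.2% and 4.75% of all genes were called in those directions (15% in all). Without both control 4 and LKO 3 it called 11 of 32 members, all of them among those 14, beside 15.6% of all genes. Without LKO 3 alone it called 0 (all genes 0.0719%). Control 4 is singled out here for its effect on these calls and was the highest control in many of these chains. The adjusted p-values without it, here and below, therefore show this dependence and are no separate support. In bulk tissue fewer cells of a type and less RNA per cell cannot be told apart, and the part of the other cell types' markers in these differences was not tested.

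**Figure D1:**
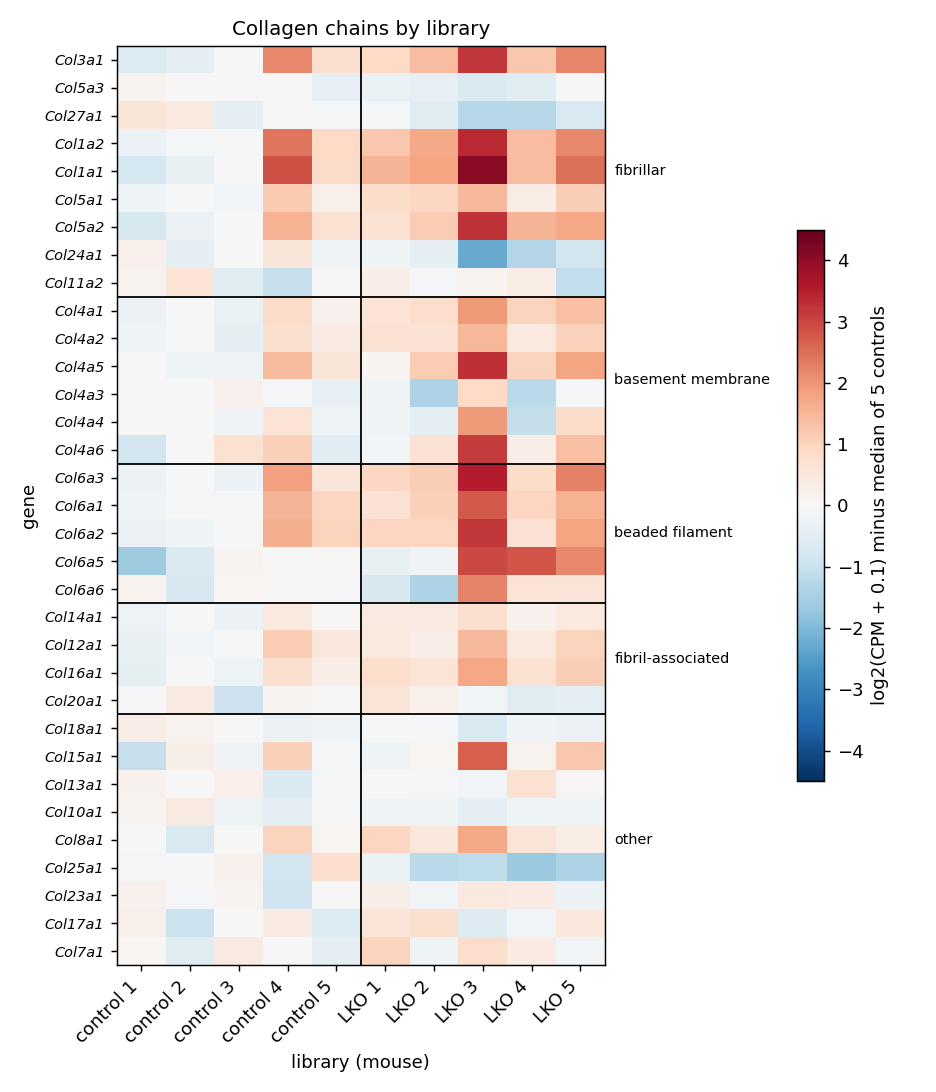
Heat map of the 33 tested collagen chains (rows, by class) in the 10 libraries (columns, 1 mouse each). Colour is log2(CPM + 0.1) minus the median of the 5 controls, red for higher and blue for lower, and LKO 3 is the highest library in 22 of 33 rows.

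The rows of the heat map show how the libraries ordered themselves. LKO 3 was the highest of the 10 libraries in 22 of 33 tested members (66.7%), where it was highest in 24.1% of all genes. Control 4 was the highest control in 20 of 33 members, against 31.6% of all genes. Groups overlapped in every tested member when all 10 libraries were kept (0 without overlap, against 1.72% of all genes higher and 2.23% lower). With control 4 left out, 10 members lay wholly above the controls and 1, Col25a1, wholly below, against 11.1% and 7.99% of all genes. All 5 LKO livers exceeded the control median in 15 members (all genes 21.2%) and all 5 fell short of it in 5 members (all genes 19.5%).

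Fibrillar chains of types I and III had higher means in LKO and a spread between mice close to the size of their means. Col3a1, the chain of the type III homotrimer and the most abundant fibrillar chain per coding length, had 29.9, 34.6, 45.9, 206 and 75.4 CPM in controls 1 to 5. In LKO 1 to 5 it had 84.5, 121, 417, 106 and 208 CPM. All LKO livers were above the control livers other than control 4, which reached the level of LKO 5. The group means were 78.4 ± 73.6 and 187 ± 137 CPM, a log2 fold change of 1.26 (SE 0.59; edgeR, adjusted p = 0.235). It was 2.01 without control 4 (edgeR, adjusted p = 0.023) and 0.72 without LKO 3 (adjusted p = 0.495).

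Type I collagen, the main protein of scar fibrils, is built from Col1a1 and Col1a2, both of them members. They fall outside the rule that picks chains for values in every library (level per coding length or smallest p) and were picked for this as the type I chains after their values were seen. Col1a1 had 3.40, 4.67, 5.97, 44.6 and 10.96 CPM in controls 1 to 5 and 17.6, 20.9, 101, 15.8 and 33.9 CPM in LKO 1 to 5. Col1a2 had 6.38, 7.27, 7.76, 42.0 and 14.6 CPM in control and 18.3, 25.6, 80.6, 20.6 and 35.4 CPM in LKO. In both, control 4 exceeded every LKO liver but LKO 3, and the other 4 controls lay below every LKO liver. The log2 fold changes were 1.44 (SE 0.75, adjusted p = 0.275) for Col1a1 and 1.21 (SE 0.58, adjusted p = 0.241) for Col1a2 by edgeR. Without control 4 they were 2.58 and 1.99 (edgeR, adjusted p = 0.0215 and 0.0197). Without LKO 3 they were 0.66 and 0.67 (edgeR, adjusted p = 0.631 and 0.519).

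Type V chains, which nucleate type I fibrils and limit their width, did not share one direction. Col5a2 had 3.36, 4.71, 5.67, 16.8 and 9.24 CPM among controls and 9.11, 12.6, 54.4, 16.5 and 19.2 CPM in LKO. The groups overlapped through control 4 and control 5, and the log2 fold change was 1.48 (SE 0.54; edgeR, adjusted p = 0.157). Col5a1 had 12.8 to 33.4 CPM in control and 18.7 to 40.0 CPM in LKO. Its log2 fold change was 0.65 (SE 0.28, edgeR adjusted p = 0.203). It was 0.98 without control 4 (edgeR, adjusted p = 0.0125) and 0.50 without LKO 3 (adjusted p = 0.367). Col5a3 had 55.3, 51.5, 50.5, 50.6 and 39.0 CPM in control and 41.5, 39.5, 32.6, 34.4 and 50.5 CPM in LKO. Here 4 of 5 LKO livers were below 4 of 5 controls, control 4 lay among its group, and the log2 fold change was -0.31 (SE 0.13; edgeR, adjusted p = 0.192).

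Types XXIV and XXVII are fibrillar collagens best known from bone and cartilage, and their chains had lower means in LKO. Col27a1 had 69.6, 65.0, 35.6, 47.5 and 45.9 CPM in controls 1 to 5 and 44.2, 33.0, 19.4, 19.7 and 29.4 CPM in LKO 1 to 5. All 5 LKO livers were below the control median, and only LKO 1 was above the lowest control. The mean was 52.7 ± 14.2 CPM in control and 29.1 ± 10.3 CPM in LKO (SD, n = 5), 1.81-fold lower, with a log2 fold change of -0.86 (SE 0.25; edgeR, adjusted p = 0.122). It was -0.89 without control 4 (edgeR, adjusted p = 0.0479) and -0.74 without LKO 3 (adjusted p = 0.185), so neither library set its size. Col24a1 was at 1.79 ± 0.471 CPM in control and 0.904 ± 0.485 CPM in LKO, a log2 fold change of -0.99 (SE 0.39; edgeR, adjusted p = 0.176), with its lowest value, 0.267 CPM, in LKO 3. Col11a2, a type XI chain, was near 0.6 CPM in both groups, with a log2 fold change of 0.055 that turned to -0.14 without control 4. Of the 9 fibrillar chains 6 were above 0 and 3 below, with a median of 0.65 that was 0.98 without control 4.

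**Figure D2:**
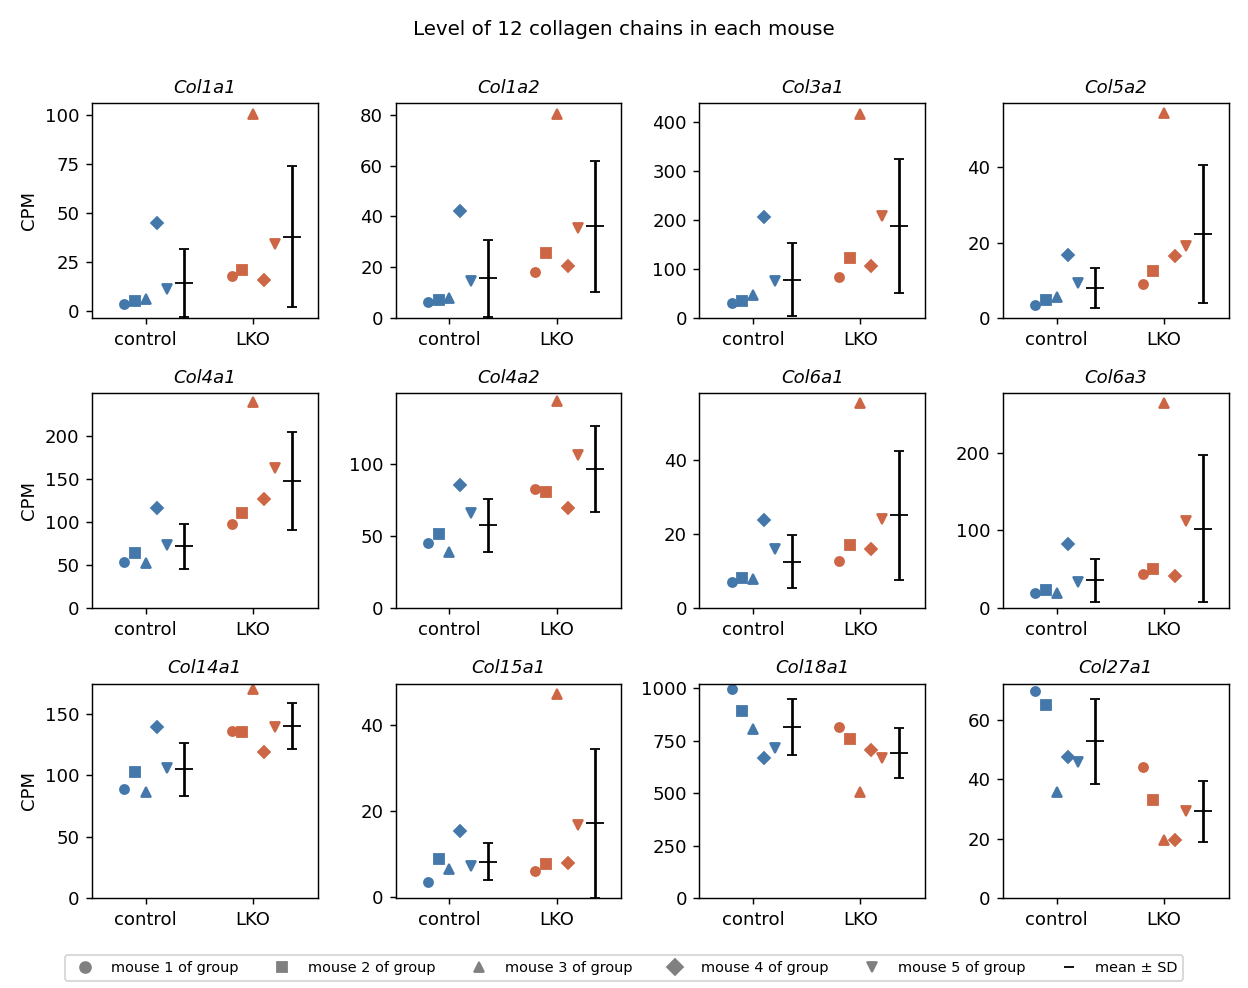
Level of 12 collagen chains in each mouse (points, TMM-scaled CPM, 1 panel per chain with its own axis), with group mean and SD as bars. Control 4 and LKO 3 are the highest points of their groups for Col1a1, Col1a2 and Col3a1, while Col18a1 and Col27a1 have their lowest point in LKO 3.

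Col4a1 and Col4a2 form the type IV collagen of most basement membranes, and Col4a1 had the smallest adjusted p of all members. Col4a1 had 53.8, 64.2, 52.1, 116 and 73.3 CPM in controls 1 to 5 and 97.7, 111, 240.3, 127 and 163 CPM in LKO 1 to 5. Only control 4 reached into the LKO range. The mean was 72.0 ± 26.3 CPM in control and 148 ± 57.2 CPM in LKO (SD, n = 5), 2.05-fold higher, with a log2 fold change of 1.04 (SE 0.28; edgeR, adjusted p = 0.108). Its partner in the trimer, Col4a2, had 44.96, 51.2, 39.0, 85.3 and 65.7 CPM in control and 82.7, 80.0, 143, 68.9 and 106 CPM in LKO. Again only control 4 exceeded the lowest LKO liver, and the log2 fold change was 0.75 (SE 0.24; edgeR, adjusted p = 0.137). Without control 4 the values were 1.28 and 0.94 (edgeR, adjusted p = 0.0121 and 0.0215). Without LKO 3 they were 0.79 and 0.55 (edgeR, adjusted p = 0.160 and 0.237). Since the starts printed above overlap on opposite strands and the strand setting of the counting is not given, reads from the first bases of these 2 genes cannot be told apart.

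Other type IV chains, which replace the common pair in specialised basement membranes, were far scarcer, and each was highest in LKO 3. Col4a5 had 1.02, 0.878, 0.877, 2.93 and 1.54 CPM in control and 1.13, 2.38, 10.8, 2.16 and 3.75 CPM in LKO. The groups overlapped from 1.13 to 2.93 CPM, and the log2 fold change was 1.47 (SE 0.58; edgeR, adjusted p = 0.179), or 0.69 without LKO 3. Col4a6 was at 0.271 ± 0.200 and 0.846 ± 1.04 CPM, with 2.67 CPM in LKO 3 and a log2 fold change of 1.64 that was 0.52 without that library. Col4a4 was at 1.28 ± 0.345 and 1.90 ± 1.76 CPM (log2 fold change 0.57, or -0.14 without LKO 3). Col4a3 was at 2.31 ± 0.316 and 2.14 ± 1.48 CPM (-0.11, or -0.58 without LKO 3). When scaled to total counts Col4a3 had 0.21, where the median of all genes was 0.235. Over all 6 type IV chains, each highest in LKO 3, the median log2 fold change was 0.89, 1.11 without control 4 and 0.54 without LKO 3.

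All 5 type VI chains had a higher mean in LKO, and with all 10 libraries this class had the highest median, which it did not keep without LKO 3. Col6a3, the chain whose cleaved end is the peptide endotrophin, had 19.2, 22.9, 19.0, 82.8 and 33.7 CPM in controls 1 to 5 and 43.6, 49.9, 264, 41.2 and 112 CPM in LKO 1 to 5. Apart from control 4 every control lay below every LKO liver. The log2 fold change was 1.52 (SE 0.60, edgeR adjusted p = 0.179). It was 2.10 without control 4 (edgeR, adjusted p = 0.0334) and 0.79 without LKO 3 (adjusted p = 0.393). Col6a1 and Col6a2, the short chains of the same trimer, showed more overlap. Col6a1 had 7.06, 8.11, 7.76, 23.7 and 16.0 CPM in control and 12.7, 17.1, 55.5, 16.1 and 24.0 CPM in LKO. Col6a2 had 4.42, 4.71, 5.37, 17.0 and 10.9 CPM in control and 10.5, 10.6, 49.7, 8.50 and 18.4 CPM in LKO. Controls 4 and 5 both lay inside the LKO range for these chains, with log2 fold changes of 0.998 and 1.20 (SE 0.46 and 0.55; edgeR, adjusted p = 0.224 for both).

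Col6a5 and Col6a6 encode alternative chains related to Col6a3 and had another pattern. Col6a5 had 0.189, 0.457, 0.844, 0.774 and 0.814 CPM in control and 0.597, 0.683, 6.82, 6.16 and 3.81 CPM in LKO. LKO 3, 4 and 5, the libraries with the code A67, were the high ones, and LKO 1 and 2, with the code A54, lay inside the control range. The log2 fold change of 2.53 (SE 0.69; edgeR, adjusted p = 0.11) was the highest of all members, and Col6a5 was the 1 member called when the A54 libraries were left out (all genes 0.0447%). Col6a6 was at 1.04 ± 0.241 and 1.99 ± 2.09 CPM, with 5.56 CPM in LKO 3, and its log2 fold change of 0.94 was 0.072 without that library. Over the class the median was 1.20, 1.61 without control 4 and 0.49 without LKO 3, where basement membrane chains had 0.54 and fibrillar chains 0.50.

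Among the fibril-associated collagens Col14a1 had the narrowest spread between mice relative to its mean, at 105 ± 21.3 CPM in control and 140 ± 18.7 CPM in LKO. Col14a1, which decorates type I fibrils and was second only to Col18a1 among members in CPM per kb of coding length in control, had 88.3, 103, 86.3, 139 and 106 CPM in controls 1 to 5. In LKO 1 to 5 it had 136, 135, 170.1, 119 and 139 CPM. Control 4 was level with LKO 5 and above LKO 1, 2 and 4, and the other controls were below every LKO liver. The log2 fold change was 0.42 (SE 0.14, edgeR adjusted p = 0.145). It was 0.54 without control 4 (edgeR, adjusted p = 0.0155) and 0.33 without LKO 3 (adjusted p = 0.255). Col16a1 had 1.93, 2.63, 2.23, 4.35 and 3.28 CPM in control and 4.62, 4.12, 9.01, 4.30 and 5.74 CPM in LKO. The overlap was slight, with control 4 just above LKO 2 and LKO 4, and the log2 fold change was 0.94 (SE 0.27; edgeR, adjusted p = 0.122).

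Col12a1, a long fibril-associated chain found in tissues under load, had 5.29, 6.18, 6.68, 14.9 and 9.47 CPM in control and 9.11, 8.33, 18.5, 9.01 and 13.5 CPM in LKO. Controls 4 and 5 lay among the LKO livers, and the log2 fold change was 0.46 (SE 0.31; edgeR, adjusted p = 0.385). Col20a1 averaged 1.45 ± 0.457 CPM in control livers and 1.49 ± 0.516 CPM in LKO livers (log2 fold change 0.043). Col9a3 had too few counts for the test, with 0.195 ± 0.135 and 0.332 ± 0.159 CPM. The class median over the 4 tested chains was 0.44, 0.65 without control 4 and 0.28 without LKO 3.

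Among the other collagens one chain outweighed all the rest. Col18a1, whose protein lies in basement membranes, carries the endostatin fragment and is made by hepatocytes among other cells, had 998, 891, 804, 669 and 718 CPM in controls 1 to 5. It had 817, 759.6, 505, 705 and 670.1 CPM in LKO 1 to 5. Here control 4 was the lowest control and LKO 3 the lowest LKO liver, the reverse of their place for Col1a1, Col3a1 and Col4a1, and the groups overlapped widely. The means were 816 ± 132 and 691 ± 118 CPM, a log2 fold change of -0.24 (SE 0.16; edgeR, adjusted p = 0.378). Per kb of coding length Col18a1 averaged 153 ± 24.9 CPM in control livers and 130 ± 22.2 CPM in LKO livers. The next members in control were Col14a1 with 19.4 ± 3.95, Col3a1 with 17.8 ± 16.8, Col4a1 with 14.4 ± 5.24 and Col4a2 with 11.2 ± 3.62 CPM per kb. Neighbours in the order of these 4 differed by less than 1 SD, while Col18a1 did not overlap them.

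Col15a1, the closest relative of Col18a1, had 3.47, 8.75, 6.41, 15.3 and 7.19 CPM in control and 6.12, 7.59, 47.4, 7.94 and 16.7 CPM in LKO. Its log2 fold change of 1.06 (SE 0.58; edgeR, adjusted p = 0.291) was 0.21 without LKO 3, and the ratio of group medians was 1.105. Col25a1, a membrane-spanning collagen best known from neurons, had 0.982, 1.02, 1.18, 0.516 and 1.77 CPM in control and 0.817, 0.382, 0.401, 0.255 and 0.322 CPM in LKO. LKO 1 was the highest LKO liver and control 4 the lowest control, and the other 4 livers of each group did not overlap. The log2 fold change of Col25a1 was -1.34 (SE 0.38, edgeR adjusted p = 0.118). It was -1.52 without control 4 (edgeR, adjusted p = 0.0197) and -1.33 without LKO 3 (adjusted p = 0.176). It was thus the chain of lowest log2 fold change, at a level near 1 CPM.

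Col13a1, a membrane-spanning collagen of cell adhesion sites, had 5.66, 4.99, 5.87, 3.16 and 4.65 CPM in control and 4.90, 4.75, 4.52, 8.12 and 5.12 CPM in LKO, with a log2 fold change of 0.17 (SE 0.21; edgeR, adjusted p = 0.637). The higher LKO mean came from LKO 4, without which the log2 fold change was -0.017. Col8a1, a short-chain network collagen of vessels, had 0.793, 0.457, 0.776, 1.68 and 0.838 CPM in control and 1.66, 1.17, 2.86, 1.25 and 1.02 CPM in LKO. Only control 4 reached into the LKO range, and the log2 fold change was 0.81 (SE 0.38, edgeR adjusted p = 0.231). It was 1.15 without control 4 (edgeR, adjusted p = 0.0496) and 0.48 without LKO 3 (adjusted p = 0.473). Col10a1, Col17a1, Col23a1 and Col7a1 stayed under 2.5 CPM in every library, with log2 fold changes of -0.23, 0.50, 0.29 and 0.64 and adjusted p of 0.314 or more (edgeR). Untested were Col8a2, at 0.193 ± 0.126 and 0.255 ± 0.181 CPM, and Col28a1, at 0.189 ± 0.202 and 0.347 ± 0.520 CPM. Col28a1 had 0 counts in control 2 and LKO 1, which allows up to 0.105 and 0.0942 CPM (3 counts, counting error only). The median of the 9 tested chains of this class was 0.29 and was 0.11 without control 4.

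**Figure D3:**
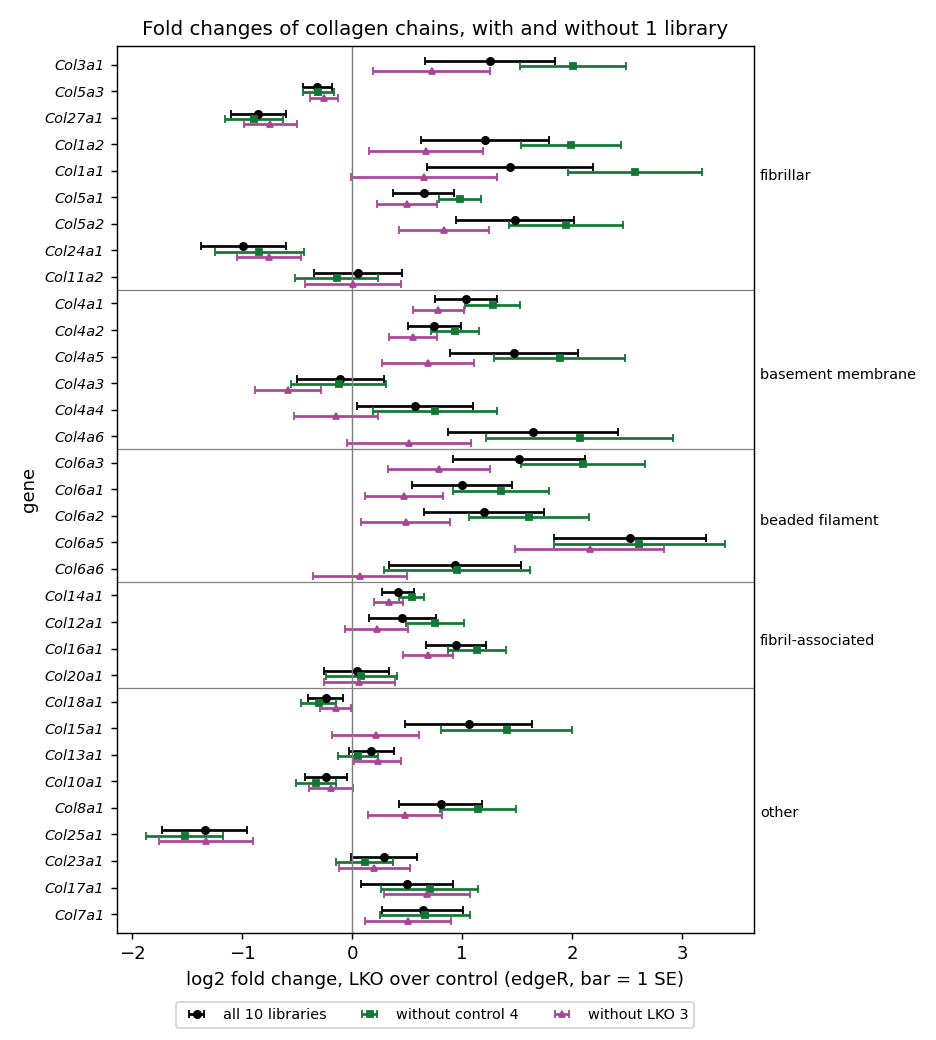
Log2 fold change (x axis, LKO over control, edgeR) of each tested collagen chain by class, with 1 SE as the bar, from all 10 libraries, without control 4 and without LKO 3. Leaving out control 4 moved most type I, III, V and VI chains to the right and leaving out LKO 3 moved them to the left, while Col27a1 and Col25a1 stayed below 0 in all 3.

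As summed CPM, the classes kept the order other, fibrillar, basement membrane, fibril-associated and beaded filament in both group means. Fibrillar chains summed to 239 ± 116 CPM in control livers and 383 ± 215 CPM in LKO livers, and basement membrane chains to 134 ± 45.6 and 253 ± 93.4 CPM (SD, n = 5). Beaded filament chains summed to 58.2 ± 39.5 and 152 ± 133 CPM, and fibril-associated chains to 118 ± 26.2 and 159 ± 24.7 CPM. Other chains summed to 834 ± 130 and 719.6 ± 101 CPM, of which all but 18.4 ± 3.06 and 28.4 ± 18.0 CPM was Col18a1. Chains other than Col18a1 therefore made up 40.3 ± 11.6% of collagen CPM in control (30.2% to 59.0%) and 56.1 ± 13.6% in LKO (44.9% to 78.0%). The ranges overlapped, with the highest share of each group in control 4 and LKO 3.

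**Figure D4:**
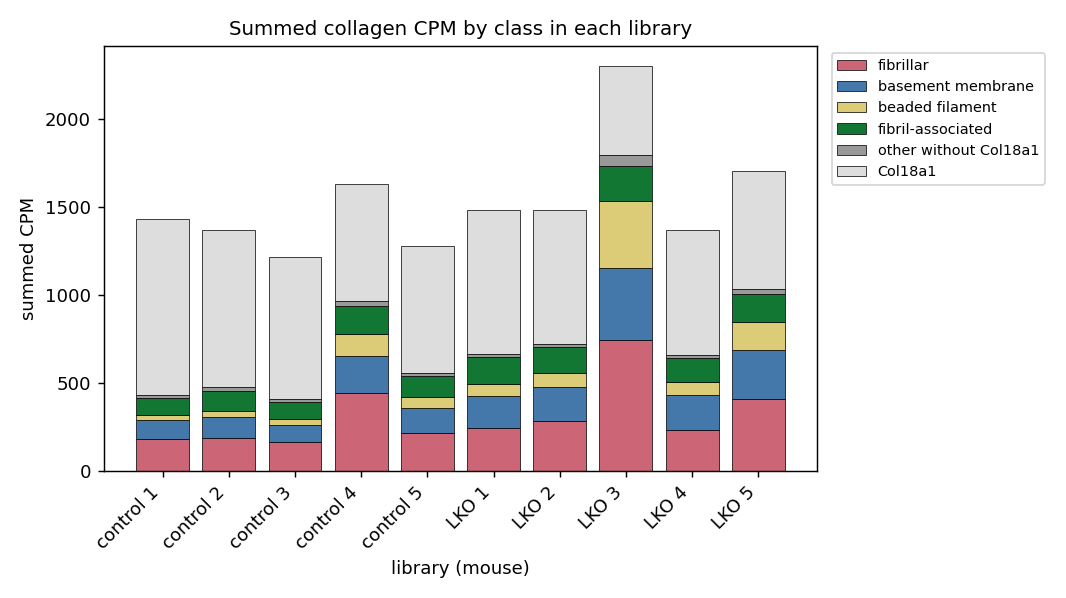
Summed CPM of the collagen classes in each of the 10 libraries (stacked bars from 0), with Col18a1 drawn apart from the other chains. Col18a1 is the largest block of most bars, and the summed chains other than Col18a1 are highest in LKO 3 at 1792 CPM and, among controls, in control 4 at 962 CPM.

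Ratios between 2 chains inside a library need no scaling between libraries, and 12 were compared by a two-sided exact permutation test over all 252 assignments of mice (smallest possible p 0.00794). The ratio with the lowest p was that of Col4a1 to Col18a1, both of basement membranes. Its log2 value was -3.55 ± 0.667 in control and -2.29 ± 0.777 in LKO, a difference of 1.27 (exact permutation p = 0.0317, adjusted over 12 ratios 0.248). All 5 LKO livers were above the control mean. The log2 ratio of Col1a1 to Col18a1 differed by 1.99 (exact permutation p = 0.0714, adjusted 0.248). None of the 12 passed after adjustment, and 1 had an unadjusted p under 0.05.

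Some of the ratios set partners of one trimer side by side, and others set chains of different collagens. The log2 ratio of Col1a1 to Col1a2, which form type I collagen together, was -0.45 ± 0.366 in control and -0.095 ± 0.273 in LKO (exact permutation p = 0.151, adjusted 0.259). Those of Col4a2 to Col4a1, Col6a2 to Col6a1 and Col6a3 to Col6a1 differed by -0.27, 0.12 and 0.41 (exact permutation p = 0.0714, 0.452 and 0.103). Between types, the difference nearest 0 of all 12 was that of Col6a1 to Col4a1, at -0.070 (exact permutation p = 0.825), a value whose sign turned without control 4, control 5 or LKO 4. Relative to Col1a1, Col5a1 was lower in all 5 LKO livers than the control mean, by 1.04 on average on the log2 scale, a difference of -1.04 (exact permutation p = 0.0952, adjusted 0.248). For Col3a1 relative to Col1a1 the difference was -0.34 (exact permutation p = 0.135), again with all 5 LKO livers on one side. Without control 4, 6 of the 12 ratios passed, each with an exact permutation adjusted p of 0.0476. These were Col1a1 to Col1a2, to Col4a1 and to Col18a1, Col3a1 and Col5a1 to Col1a1, and Col4a1 to Col18a1. All but the last contain Col1a1, so they are not separate results. Without both control 4 and LKO 3, 0 ratios passed. In that design of 4 against 4 mice the smallest possible exact permutation p is 0.0286, at which 4 ratios stood (adjusted p = 0.0857), among them Col1a1 to Col18a1 with a difference of 2.09 and Col5a1 to Col1a1 with -1.07.

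**Figure D5:**
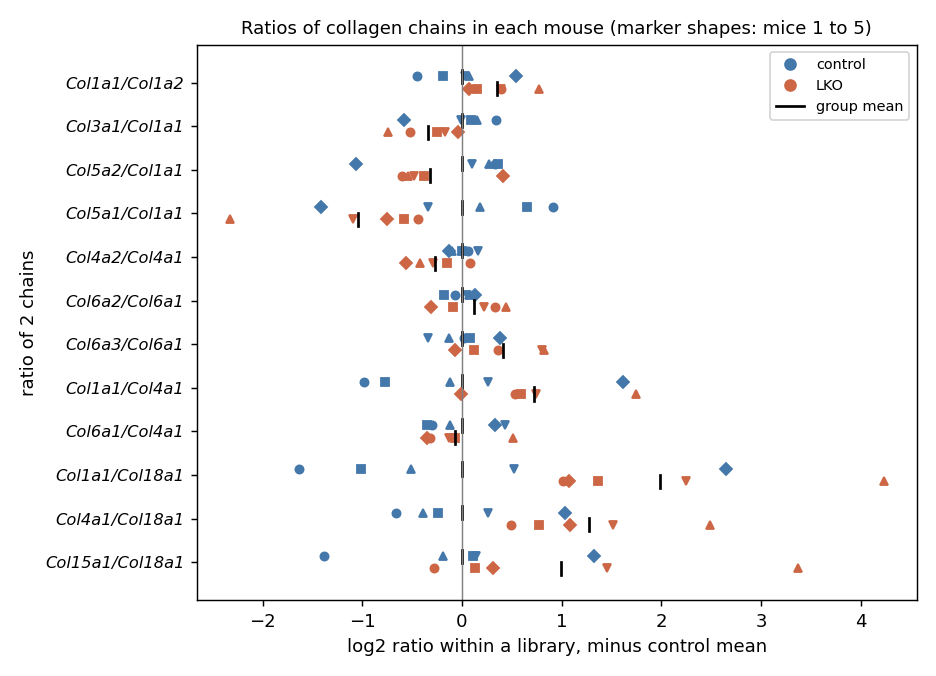
Log2 ratio of 12 pairs of chains in each library, minus the mean of the 5 controls (points, 1 per mouse). For Col1a1 to Col18a1 and Col4a1 to Col18a1 all 5 LKO points lie above 0, and for Col5a1 to Col1a1 all 5 lie below.

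Genes that modify, secrete, cut, link, bind and degrade collagen were read in the same fit, 63 in all, of which 56 had enough counts. With edgeR 0 of 56 passed, where 0.0657% of all genes did, and at an unadjusted p under 0.05 there were 24 higher and 3 lower in LKO (42.9% higher, against 12.8% of all genes). Their median log2 fold change was 0.57. Without control 4 there were 19 called higher and 2 lower (33.9% and 3.57%, against 10.2% and 4.75% of all genes). Without LKO 3 edgeR called 0, and 12 had an unadjusted p under 0.05, where 27 did with all 10 libraries. All genes without LKO 3 gave 8.84% higher and 8.4% lower at that p. Among genes named below with a log2 fold change above 0, all but P3h1, Colgalt1 and Adamts14 were highest in LKO 3. Mmp2 had 30.6 CPM there, against 4.55 to 11.6 CPM in the other LKO livers. DESeq2 called 7 (12.5%, all genes 7.79%) and limma voom 18 (32.1%, all genes 16.2%).

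Cross-linking enzymes had the median farthest from 0 after degradation genes. All 5 lysyl oxidases were tested and 4 were above 0. At an unadjusted edgeR p under 0.05 there were 3, all higher (all genes 12.8% higher and 9.5% lower). Loxl2 was at 10.7 ± 3.51 CPM in control and 19.4 ± 4.99 CPM in LKO, a log2 fold change of 0.86 (SE 0.23; edgeR, adjusted p = 0.106), Loxl3 had 0.79 and Lox, at 0.692 ± 0.878 and 2.51 ± 2.47 CPM, had 1.85 (adjusted p = 0.157 and 0.196). The list's median was 0.86. In the list of degrading enzymes and their inhibitors 7 of 9 had an unadjusted edgeR p under 0.05, all higher in LKO (all genes 12.8% higher). The median of this list was 0.89. Timp3, an inhibitor of metalloproteinases, was at 53.2 ± 8.59 and 78.4 ± 25.6 CPM (log2 fold change 0.56, adjusted p = 0.148), and Mmp2 (a gelatinase) and Ctsk (cathepsin K) had 1.63 and 1.42 (edgeR, adjusted p = 0.155 and 0.158).

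Folding and secretion genes divided. Serpinh1, the collagen chaperone HSP47, was at 11.7 ± 3.94 CPM in control and 27.9 ± 15.9 CPM in LKO, a log2 fold change of 1.25 (SE 0.34; edgeR, adjusted p = 0.11). Mia2, which takes part in the export of large cargo from the endoplasmic reticulum, was at 122 ± 4.25 and 96.8 ± 11.4 CPM (-0.34, adjusted p = 0.107), and Sparc, a collagen-binding matrix protein, had a log2 fold change of 0.76. Of the 13 genes 9 were above 0, with a median of 0.21. Of the propeptide-cleaving enzymes Bmp1 was at 90.6 ± 8.29 and 72.0 ± 10.1 CPM (-0.33, adjusted p = 0.139), while Adamts2 and Adamts14 had 1.19 and 0.67 (edgeR, adjusted p = 0.152 and 0.179). The median of the 6 tested genes was 0.45.

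Among 14 tested hydroxylases and glycosyltransferases, which modify prolines and lysines of the nascent chain, 12 were above 0, with a median of 0.24. At an unadjusted edgeR p under 0.05 there were 6, all higher (all genes 12.8% higher and 9.5% lower). Crtap and P3h1, partners in prolyl 3-hydroxylation, had log2 fold changes of 0.79 and 0.25, and Colgalt1, a galactosyltransferase, had 0.22 (edgeR, adjusted p = 0.141, 0.147 and 0.151). Of 9 tested collagen receptors 8 were above 0, with a median of 0.57. Lair1, an inhibitory receptor of leukocytes, was at 7.07 ± 2.38 and 12.1 ± 3.30 CPM (0.78, adjusted p = 0.123), and Ddr1 and Itga11 had 1.67 and 0.91 (edgeR, adjusted p = 0.215 and 0.25).

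Markers of liver cell types, including those known to make collagen, are given here beside the collagen values. Myofibroblast markers, 8 of 8 above 0 with a median log2 fold change of 0.98, summed to 49.8 to 111 CPM in control and 84.6 to 262 CPM in LKO, highest in control 4 and LKO 3. Stellate cell markers (10 of 11 above 0, median 0.26) summed to 313 to 496 CPM and 347 to 486 CPM, and LKO 3, at 410.4 CPM, was not the highest. Reln was the largest part of this sum, at 180 ± 38.4 and 191 ± 36.4 CPM, and was at 156 CPM in LKO 3. Des, Hand2, Pdgfrb, Colec11 and Hgf had their highest LKO value in LKO 3, and Lrat, Reln, Rgs5, Ngfr, Lhx2 and Ecm1 did not. Portal fibroblast and capsule markers, 7 of 10 of them tested, had a median of 1.32 and cholangiocyte markers one of 1.43. Both lists were highest in LKO 3 and LKO 5. Cholangiocyte sums were 391 and 234 CPM there, 41.2, 62.0 and 52.8 CPM in LKO 1, 2 and 4, and 37.3 to 176 CPM in control. Portal fibroblast and capsule sums were 116 and 42.7 CPM there, 18.1, 25.1 and 23.3 CPM in LKO 1, 2 and 4, and 10.9 to 32.1 CPM in control. Macrophage markers summed to 162 to 357 CPM and 287 to 516 CPM (median 0.97), and sinusoidal endothelial markers to 355 to 409 CPM and 350.1 to 551 CPM (median 0.31). Vascular endothelial markers, 6 of 6 above 0 with a median of 0.34, summed to 91.2 to 105 CPM in control and 114 to 144 CPM in LKO, without overlap, and 0 of 6 passed the test (Pecam1, an endothelial adhesion molecule, had the smallest edgeR adjusted p, 0.0977). Hepatocyte markers were below 0 in 8 of 8, with a median of -0.42. No listed marker was at 0 in every library. The part of any of these cell types in the collagen values was not tested.

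Within the code A54, the 1 control and 2 LKO livers differed by a median of 0.64 on the log2 scale over the 36 members. The differences were 2.47 for Col1a1, 1.76 for Col3a1, 0.95 for Col4a1, 1.28 for Col6a3, 0.62 for Col14a1 and -0.86 for Col27a1. Of the 33 tested chains 21 were above 0 and 12 below. Some had the opposite sign to the comparison of all 10 livers, among them Col6a6 at -1.29, Col4a4 at -0.35, Col13a1 at -0.23, Col23a1 at -0.11 and Col11a2 at -0.057. These differences rest on 1 control. With the code as a covariate, edgeR called 0 members (all genes 0%), 2 higher and 1 lower had an unadjusted p under 0.05 (all genes 3.09% and 1.9%), and the log2 fold change was above 0 in 21 of 33 (all genes 49.5%).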

How the data were processed

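Liver RNA of 10 mice was depleted of ribosomal RNA and made into stranded libraries, per the labels' protocols. The deposited table holds raw counts per gene, and the submitters' processing notes list build GRCm39, bcl2fastq 2.20 and DESeq2. Not given in the sources used here are the aligner, the counter and the strand setting, so reads of the 19 members that overlap another annotated gene are uncertain. RefSeq symbols matched 25275 of 27179 genes, and unmatched genes held 0.693% of counts. Labels describe 5 mice per group but nothing more of how the livers were sampled, and p-values measure the spread between these libraries.

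The main test was edgeR 4.0.16 (R 4.3.3): filterByExpr, TMM, quasi-likelihood F test, Benjamini-Hochberg over 15226 genes, threshold 0.05. CPM is TMM-scaled. Level comparisons between genes used the longest coding sequence in GENCODE, so reads on untranslated ends make them approximate. Ratios used a prior count of 0.5. Alternatives were DESeq2 1.42.0, limma 3.58.1 voom, other scalings and filters, a block, the title code and left-out libraries. In simulated counts for LKO against control (15117 genes), edgeR found 73 of 100 true 2-fold changes and 99 of 99 true 4-fold changes, with 4 false calls. Every simulated gene had the same spread between mice (biological coefficient of variation 0.242), and no simulated library stood apart from its group. Type I and III chains varied more than that in these livers, so these rates do not carry over to them.

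Members and lists were chosen with earlier results of these data known. Given with every library are, per class, the 3 chains highest per coding length and the 2 with the smallest p; pathway lists give the 3 smallest p. Figures used matplotlib 3.10.9.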

Additional observations from a re-analysis of the deposited data

Results flagged for a closer look

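A single library far from the other 4 of its group was found in 9 of 96 groups of 5 values (log2 CPM of a chain, or log2 ratio of 2 chains), by the gap to its nearest neighbour divided by the group's range, above 0.71. Independent groups would give about 1 in 20 by chance, or 4.8. The 96 groups come from the same 10 libraries and the ratios share chains, so 9 against 4.8 is no test of an excess. Among ratios both cases were Col5a2 to Col1a1, with control 4 low (0.818) and LKO 4 high (0.785). Among chains, Col9a3 was high in LKO 3 (0.819), Col10a1 low in LKO 3 (0.799), Col13a1 high in LKO 4 (0.786) and Col23a1 low in control 4 (0.781). Col11a2 was low in LKO 5 (0.743), Col5a3 low in control 5 (0.741) and Col6a6 low in control 2 (0.740). Type I and III chains had no such case. Control 4 was high in 0 of the 9 cases and LKO 3 in 1, that of Col9a3.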

How the results depend on the processing

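Collagen chains called numbered 6 of 33 with DESeq2 and 12 of 33 with limma voom (all genes 7.79% and 16.2%). There were 1 of 35 without the A54 libraries and 11 of 32 without control 4 and LKO 3 (all genes 0.0447% and 15.6%). Leaving out 1 library gave 0 to 14 chains, the 14 without control 4 (all genes 15%). The other scalings, filters and the robust fit gave 0 (all genes 0.05% to 0.152%). Calls with the title code are not given, since its genotype difference rests on the 1 control of A54. Pathway genes called numbered 7 of 56 with DESeq2, 18 of 56 with limma voom and 24 of 56 without control 4 and LKO 3. The shares of all genes in these settings are those given above. Leaving out 1 library gave 0 to 21 pathway genes, the 21 without control 4 (all genes 15%). Ratios called went from 0 to 6 on leaving out 1 library, the 6 without control 4.

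The replicate numbers gave no steady pairing of the samples. For each tested gene the group mean was subtracted from log2 CPM, and the remaining deviations were correlated between control and LKO libraries. Correlations of same-numbered libraries were 0.419, 0.208, -0.234, -0.399 and -0.018. Only control 1 had its highest correlation with the LKO library of its own number. With the replicate block, edgeR called 0 chains and 0 pathway genes (2 genes of all 15226 against 10), and permuting signs within pairs could call no ratio, since its smallest p with 5 pairs is 0.0625.

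The median of the other collagens was 0.57 with total counts, 0.063 with voom, -0.11 with the title code, -0.11 in A54 alone and 0.11 without control 4 and LKO 3, and 0.11 to 0.40 on leaving out 1 library. The other class medians kept their sign on leaving out 1 library, at 0.50 to 0.98 (fibrillar), 0.54 to 1.11 (basement membrane), 0.49 to 1.61 (beaded filament) and 0.28 to 0.65 (fibril-associated). Total counts moved the median of all genes to 0.235.

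Directions turned in 8 chains and 1 ratio. With total counts Col4a3 was 0.21 and Col10a1 0.017. With voom Col4a4 was -0.047, Col6a6 -0.17 and Col11a2 -0.16. With the title code Col4a4 was -0.36, Col6a6 -1.34, Col11a2 -0.053, Col13a1 -0.23 and Col23a1 -0.11. Leaving out 1 library spread Col4a3 from -0.58 to 0.095, Col4a4 from -0.14 to 0.81, Col13a1 from -0.017 to 0.25, Col20a1 from -0.15 to 0.18 and Col11a2 from -0.14 to 0.31. Without A54 Col4a3 was 0.16 and Col20a1 -0.34, and without control 4 and LKO 3 Col11a2 was -0.18. The log2 difference in the ratio of Col6a1 to Col4a1 spread from -0.22 to 0.038, above 0 without control 4, control 5 or LKO 4. The cause was not tested. Of the single-chain values under alternatives 683 kept direction and side of the threshold, 44 passed only there and 24 turned.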
